A study of Xenopus laevis with 12 samples.

Results

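Whole brains of Xenopus laevis tadpoles that had met thioridazine as embryos were compared between Nieuwkoop-Faber (NF) stage 45 and NF 47, 2 early tadpole stages that precede metamorphosis. The libraries were taken by their labels alone: 3 of thioridazine brains at NF 45 and 3 at NF 47, which are 6 of the 12 libraries in the series. Thioridazine is an antipsychotic drug of the phenothiazine class that antagonizes dopamine receptors. It was given at 90 µM from NF 14 to NF 26, a period that includes the folding of the neural plate and the closing of the tube. The exposure was in plates of 50 embryos per 10 mL at 18 °C. The embryos were kept at 14 °C before and after that, so all 6 libraries come from animals that had left the drug long before collection, and per the labels the treated animals had brain abnormalities. The other 6 libraries are brains of untreated controls at the same 2 stages, 3 at each, which shared the rearing and the exposure temperature but not the drug. The labels call the controls wildtype and give no genotype or strain for the treated animals. How many brains or clutches went into a library is not given either, so the p-values below measure the spread between these libraries.

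The early tadpole brain is still growing. Progenitors along the ventricle go on dividing, newborn neurons extend axons and join circuits, and oligodendrocytes begin to wrap axons in myelin. The hypothalamus makes peptide messengers, some of which govern the pituitary, the gland whose hormones control growth, pigmentation and later metamorphosis. Xenopus laevis carries a doubled genome, and the suffixes .L and .S mark the copies of a gene on its long and short chromosome sets. Reads from copies of similar sequence can be split between them during counting, so the level of a single copy is uncertain.

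Levels are given as CPM, the count scaled to a common library size by the library's total and its TMM normalization factor, and differences as log2 fold changes of NF 47 against NF 45 with the standard error (SE). Library totals lay between 13263055 and 18164871 reads in the thioridazine brains and between 12843954 and 18164871 over all 12 libraries. CPM is not divided by gene length, so levels are compared within a gene only. Replicate 2 at NF 45 stood apart from the other 5 thioridazine libraries. On the first principal component of their log2 CPM, which held 56.6% of the variance, it lay at 125.3 and the others between -45.83 and -0.03522. Its log2 CPM correlated across genes with the other NF 45 replicates at 0.8878 and 0.9014, while NF 45 replicates 1 and 3 correlated at 0.9695 and the NF 47 replicates at 0.9704 to 0.9786. Genes are not independent replicates, and these values describe the libraries. Most markers of brain tissue were at like levels in all 6: elavl4.L, an RNA-binding protein of neurons, lay between 267 and 390 CPM, and fabp7.L, a fatty acid binding protein of radial glia, between 2190 and 3560 CPM. The calcium sensor gene of synaptic vesicles syt1.L did not follow them, at 47.2, 2.34 and 35.9 CPM in NF 45 replicates 1, 2 and 3 and 24.2, 24.2 and 20.2 CPM at NF 47, so NF 45 replicate 2 was far below the rest. That library was the highest for the markers elavl3.L, at 59.2 against 30.7 to 38.9 CPM, and en2.S, at 30.1 against 16.7 to 22.4 CPM.

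Skin, muscle and connective tissue markers moved with that library. The summed level of the skin and epithelium list was 5110, 671 and 3190 CPM in NF 45 replicates 1, 2 and 3 and 2080, 2270 and 2090 CPM at NF 47. Replicate 2 was therefore the lowest of the 6 and its NF 45 partners the highest. The muscle list summed to 1630, 5890 and 1270 CPM at NF 45 and 1730, 1330 and 2130 CPM at NF 47, so replicate 2 was the highest. The cartilage, bone and connective tissue list summed to 7020, 1730 and 6500 CPM at NF 45 and 5390, 5560 and 5800 CPM at NF 47. Single genes showed the same: krt12.5.S, a keratin, lay at 945, 4.57 and 560 CPM at NF 45 and 304, 340 and 328 CPM at NF 47, and ckm.L, muscle creatine kinase, at 330, 1280 and 239 CPM and then 375, 289 and 407 CPM. The results below are therefore given with and without NF 45 replicate 2, and the part of such tissue in them was not tested. In whole-brain RNA, fewer cells of a type and less RNA per cell cannot be told apart.

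**Figure D1:**
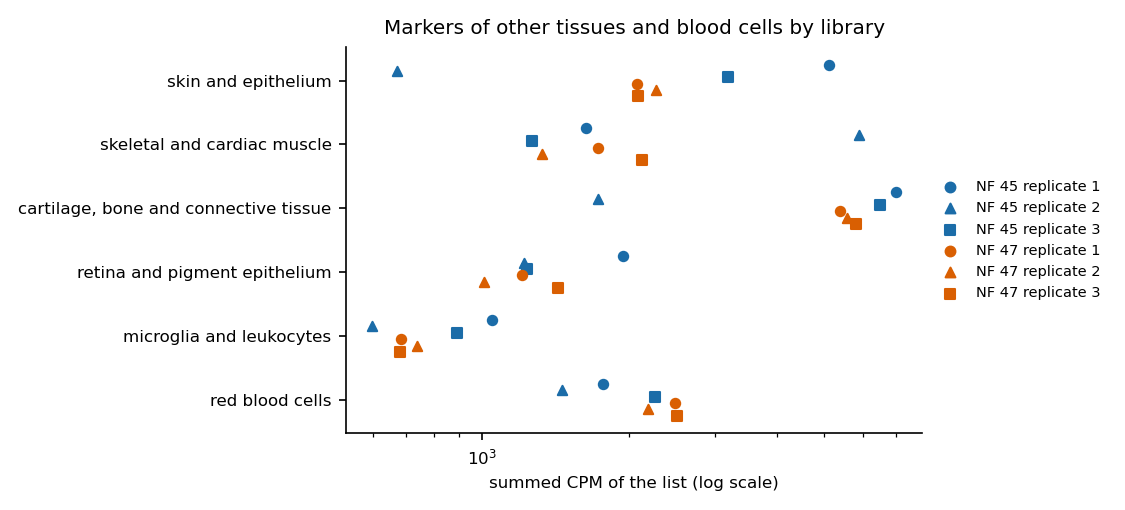
Summed CPM (log scale) of marker lists for tissues around the brain, blood and leukocytes in each of the 6 thioridazine libraries; each point is 1 library, coloured by stage and shaped by replicate. NF 45 replicate 2 lies lowest for skin, at 671 CPM, and highest for muscle, at 5890 CPM.

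Across all genes the stage difference was small beside the spread between libraries. The quasi-likelihood test of edgeR, with Benjamini-Hochberg adjustment over 26570 genes, called 0 genes (0%), with a smallest adjusted p of 0.102. At an unadjusted p under 0.05 it passed 2560 genes (9.63%), of which 1346 (5.07%) were higher at NF 47 and 1214 (4.57%) lower. Without NF 45 replicate 2 it again called 0 of 26907 genes (0%), and 2950 (11%) passed at the unadjusted threshold, 1779 (6.61%) higher and 1171 (4.35%) lower. The log2 fold change was above 0 in 45.6% of genes with all libraries and in 51% without that one. These shares, and those of DESeq2 in the next paragraph, are the background for the counts in the gene lists below.

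The other tests made more calls. The Wald test of DESeq2, which the submitters' processing notes name, called 281 genes (1.06%) at an adjusted p under 0.05, 161 higher (0.606%) and 120 lower (0.452%). It gave no adjusted p for 11342 of the 26570 genes. These count as uncalled in the shares, so the shares are larger among genes that could be called. List members without an adjusted p likewise count as tested and uncalled, and their number is not given. Without NF 45 replicate 2 DESeq2 called 219 (0.814%). Of these, 132 were called both times, which is 47.0% of the first set and 60.3% of the second. All 281 had the same direction without that library. In 280 of them the CPM of the stages did not overlap, so leaving out 1 library could hardly turn the direction. Same-numbered libraries of the 2 stages deviated together, and with the replicate number as a block DESeq2 called 58 genes (0.218%), 29 of them among the 281. Leaving out 1 NF 47 library at a time moved the 281 to 34 without replicate 1, 497 without replicate 2 and 53 without replicate 3. Without NF 45 replicate 1 the count was 137 and without replicate 3 it was 163. Limma-voom with library weights called 1 gene (0.00376%). The words rose and fell below mean a call by DESeq2 with all 12 libraries in the fit; edgeR's adjusted p for these 281 genes lay between 0.102 and 0.377. On simulated data DESeq2 made more false calls than edgeR.

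Most called changes were modest. The median log2 fold change was 0.54 among the genes that rose and -0.49 among those that fell, and 17 of the 281 reached 1 in size, 14 upward and 3 downward. The CPM of the 2 stages did not overlap in 280 of the 281, against 7.35% of all genes with every NF 47 library above and 5.98% with every one below. These calls were made from the same libraries and favour genes whose stages separate. Here and gene by gene below, lack of overlap describes the calls and is no separate support for them. In 189 called genes the other chromosome copy was also tested, and in 180 of them it had the same sign (95.2%, against 70.1% of all 13792 such genes). The called genes were picked for their difference and all genes were not, and reads can be split between like copies. The signs are therefore no separate support for the calls. Both copies were called in 18 pairs.

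The gene with the smallest p by every test was jarid2.L, which encodes a DNA-binding partner of the Polycomb repressive complex that places repressive histone marks. It measured 251, 284 and 217 CPM at NF 45 and 731, 574 and 635 CPM at NF 47. Every NF 47 library was thus well above every NF 45 library, replicate 2 included. The log2 fold change was 1.37 (SE 0.17), with an adjusted p of 0.102 by edgeR and 2.07e-11 by DESeq2, and it was the gene that limma-voom called. The other copy, jarid2.S, measured 269, 462 and 107 CPM and then 293, 362 and 228 CPM, so its groups overlapped, and its log2 fold change of 0.07 (SE 0.441) turned negative without NF 45 replicate 3 or NF 47 replicate 2. A second chromatin gene, dot1l.L, a histone methyltransferase, measured 145, 148 and 153 CPM and then 287, 242 and 300 CPM. It rose by 0.89 (SE 0.165), with a DESeq2 adjusted p of 0.000101.

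Genes of peptide signalling were higher at NF 47, and by number their list held the most rises of the 36 lists. By share of members tested it was not the first. It held 11 of 62, against 3 of 16 in the pituitary list and 6 of 32 among immediate early genes. Of 62 tested members of the neuropeptide and hypothalamus list, 57 had a log2 fold change above 0, 27 were higher at an unadjusted p under 0.05 by edgeR and 0 lower, and 11 rose by DESeq2. Both pomc copies are members of this list and of the pituitary list below. Their rises and levels are therefore counted in both. The list's median log2 fold change was 0.35 with all libraries and 0.35 without NF 45 replicate 2, against -0.03 and 0.01 over all genes tested. Without that library 6 members were called, and with the replicate block 2. The summed level of the list was 3620, 3650 and 3670 CPM at NF 45 and 5060, 4820 and 4500 CPM at NF 47, so the stages did not overlap and replicate 2 lay with its partners.

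Genes that store and cut these peptides were among them. For chga.L, chromogranin A of dense-core vesicles, levels were 172, 158 and 166 CPM at NF 45 and 260, 224 and 217 CPM at NF 47, a rise of 0.50 (SE 0.105, DESeq2 adjusted p 0.00133). Its other copy chga.S gave 116, 102 and 117 CPM and then 147, 166 and 150 CPM, and it too rose, by 0.46 (SE 0.0884, adjusted p 0.000174). In both copies the lowest NF 47 library was above the highest NF 45 library. The prohormone convertase pcsk2.L, which cuts precursors into active peptides, rose by 0.47 (SE 0.105, DESeq2 adjusted p 0.00396).

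Among the peptide precursors, penk.L, which yields enkephalins, measured 61.7, 55.7 and 66.6 CPM at NF 45 and 111, 81.0 and 92.1 CPM at NF 47, a rise of 0.62 (SE 0.149, DESeq2 adjusted p 0.00748). Its stages did not overlap, with NF 47 replicate 1 the highest. The feeding-related peptide gene cartpt.L measured 6.36, 8.91 and 7.62 CPM and then 14.4, 13.5 and 17.0 CPM and rose by 0.96 (SE 0.2, adjusted p 0.00111). For vip.L, vasoactive intestinal peptide, the levels were 18.1, 17.7 and 16.3 CPM and then 28.8, 28.7 and 23.4 CPM, a rise of 0.63 (SE 0.149, adjusted p 0.00716). Each of the 3 precursors was higher in every NF 47 library than in any NF 45 library. Smaller p-value margins held for cck.L (cholecystokinin), pmch.S (melanin-concentrating hormone) and npy.S (neuropeptide Y), which rose by 0.74, 0.94 and 0.42 with adjusted p of 0.0259, 0.034 and 0.0464, none of them called without NF 45 replicate 2. The gonadotropin-releasing hormone gene gnrh2.L was not called; its levels were 20.4, 23.3 and 23.4 CPM and then 27.0, 22.9 and 37.6 CPM, which overlap (log2 fold change 0.38, SE 0.193).

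**Figure D2:**
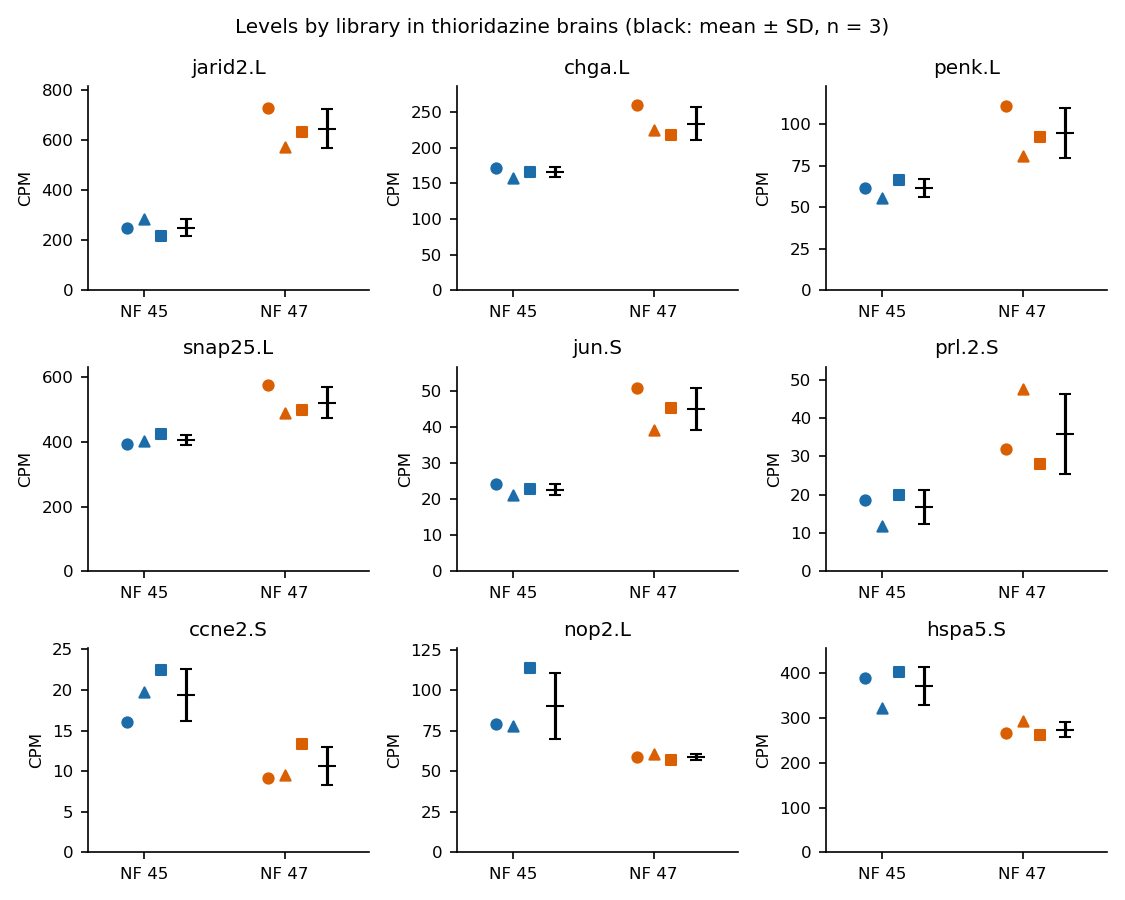
CPM of 9 genes in the 6 thioridazine libraries; each panel is 1 gene, circles, triangles and squares are replicates 1, 2 and 3, and black marks give the mean ± SD of 3 libraries. For jarid2.L the NF 47 libraries lie between 574 and 731 CPM, above the NF 45 libraries at 217 to 284 CPM.

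Pituitary hormone genes were higher at NF 47 with a wide spread. Of 16 tested members, 13 had a log2 fold change above 0, 8 were higher at an unadjusted p under 0.05 and 3 rose by DESeq2, and the list's median was 0.95, or 0.85 without NF 45 replicate 2. Without that library, and with the replicate block, 1 member was called. The prolactin gene prl.2.S measured 18.6, 11.8 and 20 CPM at NF 45 and 32.0, 47.6 and 27.9 CPM at NF 47. Its stages did not overlap, and it rose by 1.09 (SE 0.26, DESeq2 adjusted p 0.00748, and 0.0395 without NF 45 replicate 2). For pomc.L, the precursor of the pigment and stress hormones MSH and ACTH, the levels were 143, 73.0 and 109 CPM and then 185, 321 and 176 CPM, and for pomc.S 113, 68.9 and 97.8 CPM and then 141, 312 and 150 CPM. In both pomc copies NF 45 replicate 2 was the lowest library and NF 47 replicate 2 the highest. They rose by 1.07 (SE 0.292) and 1.1 (SE 0.327), with adjusted p of 0.0259 and 0.0447; without NF 45 replicate 2 these became 0.0867 and 0.271, and with the replicate block 0.814 and 0.855. The growth hormone copies gh1.L and gh1.S were not called, with log2 fold changes of 1.05 (SE 0.359) and 1.06 (SE 0.413) and overlapping stages. The summed level of the list was 378, 226 and 310 CPM at NF 45 and 482, 829 and 451 CPM at NF 47, and how much pituitary tissue came with each brain was not measured.

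Immediate early genes, which cells switch on within minutes of stimulation, were higher at NF 47 as well. Of 32 tested, 27 had a log2 fold change above 0, 13 were higher and 1 lower at an unadjusted p under 0.05, and 6 rose by DESeq2; the median was 0.45, or 0.59 without NF 45 replicate 2. Without that library 5 were called, and with the replicate block 1. The AP-1 subunit gene jun.S measured 24.2, 21.1 and 22.8 CPM at NF 45 and 50.9, 39.1 and 45.2 CPM at NF 47, a rise of 0.99 (SE 0.171, DESeq2 adjusted p 1.69e-05). The related junb.L measured 16.9, 18.4 and 16.9 CPM and then 27.6, 27.4 and 27.4 CPM, and rose by 0.66 (SE 0.137, adjusted p 0.00125). Neither gene had overlapping stages, and replicates agreed closely for junb.L. The remaining calls were jun.L (0.72), jund.S (0.62) and the orphan nuclear receptor copies nr4a1.S (1.06) and nr4a1.L (0.78). The list's summed level lay at 527, 525 and 531 CPM at NF 45 and at 686, 642 and 672 CPM at NF 47.

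Synaptic genes were higher on balance, by an amount that depended on NF 45 replicate 2. In the synapse and synaptic vesicle list 47 of 69 members had a log2 fold change above 0, 15 were higher and 0 lower at an unadjusted p under 0.05, and 2 rose by DESeq2. Over all genes 45.6% lay above 0, 5.07% were higher and 4.57% lower at that threshold, and 0.606% rose. The list's median was 0.10 with all libraries and 0.27 without NF 45 replicate 2, when 62 members lay above 0 and 22 passed the unadjusted threshold. It was 0.03 without NF 45 replicate 1. The transmitter signalling list moved from 0.12 to 0.33 and the ion channel list from 0.14 to 0.38 without NF 45 replicate 2, and with the replicate block all 3 lists had 0 calls. In all 3 lists the median member was higher in NF 45 replicate 2 than in its NF 45 partners, which is the library with the high muscle and low skin markers; the part of these in the difference was not tested.

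The synaptic genes that rose were snap25.L, a membrane-fusion protein of nerve terminals, and pclo.L, a scaffold of the active zone. Levels of snap25.L were 393, 402 and 425 CPM at NF 45 and 576, 491 and 498 CPM at NF 47, a rise of 0.36 (SE 0.107, DESeq2 adjusted p 0.0467). Those of pclo.L were 35.3, 36.8 and 38.3 CPM and then 63.8, 50.5 and 61.4 CPM, a rise of 0.67 (SE 0.165, adjusted p 0.0102). Stages did not overlap in either, but without NF 45 replicate 2 snap25.L was no longer called (adjusted p 0.11). In the transmitter list slc32a1.S rose, the vesicular transporter for GABA and glycine, by 0.33 (SE 0.0955, adjusted p 0.0427, and 0.0855 without that library). Among the other leading genes with neuronal roles, snca.L (alpha-synuclein) measured 107, 91.8 and 110 CPM and then 171, 136 and 157 CPM and rose by 0.58 (SE 0.117, adjusted p 0.000516). The potassium channel partner kcnip1.L rose by 0.66 (SE 0.119), the FXYD-family sodium pump regulator fxyd6.S by 0.49 (SE 0.0801) and the protease inhibitor serpini1.S, neuroserpin, by 0.61 (SE 0.109), with adjusted p of 5.66e-05, 7.54e-06 and 3.4e-05.

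The dopamine system, which thioridazine acts on, gave no call. The gene of tyrosine hydroxylase, the first enzyme of dopamine synthesis, measured 8.10, 11.1 and 10.3 CPM at NF 45 and 12.9, 10.2 and 10.8 CPM at NF 47 for th.L, and 6.29, 6.52 and 6.44 CPM and then 4.68, 8.38 and 5.43 CPM for th.S. The stages overlapped in both, with log2 fold changes of 0.20 (SE 0.198) and -0.06 (SE 0.255). The D2 receptor copies drd2.L and drd2.S had log2 fold changes of 0.30 (SE 0.2) and 0.53 (SE 0.206), with overlapping stages and edgeR adjusted p of 0.684 and 0.435. Over the monoamine list 40 of 61 members lay above 0, 2 were higher at an unadjusted p under 0.05, and the median was 0.12. Over all genes 45.6% lay above 0 and 5.07% were higher at that threshold, so with all libraries the list's share at the threshold was no larger. Without NF 45 replicate 2 it was larger: 47 of 62 members lay above 0, 9 were higher at that threshold, and the median was 0.23. Of the 21 dopamine members 5 were then higher at that threshold. The shares of all genes were then 51% above 0 and 6.61% higher, and DESeq2 still called 0 members. The p-values of genes not called do not show that the levels were the same at both stages.

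Myelin genes were higher at NF 47 on balance, with a list median of 0.10, or 0.17 without NF 45 replicate 2. In the whole oligodendrocyte list 35 of 52 members lay above 0, against 45.6% of all genes. At an unadjusted p under 0.05 by edgeR, 5 were higher and 0 lower, against 5.07% and 4.57% of all genes. All 5 were among the 23 sheath protein genes, of which 16 lay above 0, with a median of 0.20. Of 15 transcription factor genes 13 lay above 0 (median 0.10), and of 5 precursor receptor genes 3 did (median 0.15). Lipid enzyme genes went the other way, with 3 of 9 above 0 and a median of -0.15. Without NF 45 replicate 2, 36 of 52 members lay above 0 and 7 were higher at that threshold. The shares of all genes were then 51% and 6.61%. The myelin basic protein copy mbp.S measured 31.1, 16.9 and 14.5 CPM at NF 45 and 52.3, 39.8 and 28.9 CPM at NF 47. Its stages overlapped, because NF 45 replicate 1 was above NF 47 replicate 3, and within each replicate number NF 47 was the higher. It was not called with all libraries (log2 fold change 0.95, SE 0.299, DESeq2 adjusted p 0.0658) and had an adjusted p of 0.00165 with the replicate block. For mbp.L the log2 fold change was 0.73 (SE 0.295, DESeq2 adjusted p 0.197). The axonal adhesion gene cntnap1.L, which flanks nodes of Ranvier, measured 11.2, 14.6 and 13.9 CPM and then 26.8, 24.2 and 20.2 CPM and rose by 0.84 (SE 0.231, DESeq2 adjusted p 0.0281). It was the only call in the separate nodes of Ranvier list. There 9 of 20 members lay above 0 and the median was -0.03. Without NF 45 replicate 2, 19 lay above 0 and the median was 0.24.

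Lipid synthesis genes showed 3 rises among 53 tested: scd.S, a fatty acid desaturase, by 0.59, fads2.L, another desaturase, by 0.35, and acaca.S, which makes malonyl-CoA, by 0.56, with DESeq2 adjusted p of 0.0207, 0.0321 and 0.0436. Over all genes 0.606% rose. The list's median was 0.13 with and 0.13 without NF 45 replicate 2, and 0.06 without NF 47 replicate 1. The calls were 1 without NF 45 replicate 2 and 0 with the replicate block. The lipid transfer gene pltp.S measured 26.9, 27.2 and 24.5 CPM at NF 45 and 53.3, 42.6 and 45.3 CPM at NF 47, with no overlap, and rose by 0.84 (SE 0.16, adjusted p 0.00016).

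Genes of cell division were lower at NF 47. Of 89 tested members of the cell cycle and DNA replication list 4 had a log2 fold change above 0, 35 were lower and 0 higher at an unadjusted p under 0.05, and 6 fell by DESeq2. The median was -0.32, and -0.36 without NF 45 replicate 2, when 5 were called; with the replicate block 0 were called. By role, the median was -0.27 over 28 replication genes, -0.33 over 44 mitosis genes and -0.35 over 17 regulators of G1. The list's summed level was 3730, 3510 and 4620 CPM at NF 45 and 3010, 3260 and 3460 CPM at NF 47, so NF 45 replicate 3 was the highest and the stages did not overlap. Leaving out that library gave a median of -0.17.

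The cyclin gene ccne2.S, which drives entry into DNA replication, measured 16.0, 19.7 and 22.4 CPM at NF 45 and 9.10, 9.54 and 13.3 CPM at NF 47. Every NF 47 library was below every NF 45 library, and it fell by 0.87 on the log2 scale (SE 0.205, DESeq2 adjusted p 0.00716). The other calls were the mitotic kinesin gene kif23.L (-0.58), the replication licensing gene cdc6.L (-0.47), the condensin gene ncapg.L (-0.43), the spindle checkpoint gene bub1b.L (-0.55) and the cytokinesis gene anln.L (-0.50), with DESeq2 adjusted p between 0.0102 and 0.0467. The mitotic kinase copies cdk1.L and cdk1.S were not called; their log2 fold changes were -0.40 (SE 0.188) and -0.32 (SE 0.14) by edgeR, and their stages overlapped. Outside the list, dlgap5.S, a spindle protein gene, measured 30.5, 28.0 and 29.1 CPM and then 19.0, 19.2 and 19.6 CPM and fell by 0.60 (SE 0.111, adjusted p 0.000101). The transcription factor gene e2f3.S, which acts at the start of DNA replication, fell by 0.63 (SE 0.138, adjusted p 0.003).

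Genes of ribosome assembly, cytosolic aminoacyl-tRNA synthetases and nuclear transport were lower too. These 3 lists were added after the leading genes had been seen, so their counts describe the choice as well. In the ribosome assembly list 8 of 94 members lay above 0, 43 were lower and 1 higher at an unadjusted p under 0.05, 9 fell, and the median was -0.30. In the list of cytosolic aminoacyl-tRNA synthetases, which load amino acids on tRNA, 5 of 33 lay above 0, 12 were lower, 3 fell, and the median was -0.19. In the nuclear transport list 8 of 51 lay above 0, 14 were lower, 4 fell, and the median was -0.21. Without NF 45 replicate 2 the calls were 12, 3 and 0, and with the replicate block they were 0 in all 3 lists. NF 45 replicate 3 was the highest library in each, and without it the medians were -0.15, -0.12 and -0.10. The synthetase median was also -0.10 without NF 47 replicate 2.

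The nucleolar methyltransferase gene nop2.L measured 79.4, 78.3 and 114 CPM at NF 45 and 58.6, 60.8 and 57.1 CPM at NF 47, with NF 45 replicate 3 the highest and no overlap. It fell by 0.62 (SE 0.152, DESeq2 adjusted p 0.00962). Other assembly genes that fell were rrs1.L, imp3.S and the helicase gene ddx24.L, with log2 fold changes of -0.71, -0.68 and -0.56. Both subunit genes of phenylalanyl-tRNA synthetase fell, with log2 fold changes of -0.66 for farsa.L (SE 0.137, adjusted p 0.00113) and -0.56 for farsb.L (SE 0.149, adjusted p 0.0216), and so did mars1.S, methionyl-tRNA synthetase, at -0.45. In the transport list the import receptor gene kpnb1.S (-0.34) and rangap1.S (-0.53), which encodes a regulator of Ran, fell. Genes of the ribosomal proteins themselves gave 0 calls among 129 tested by DESeq2 and 0 at an unadjusted p under 0.05 by edgeR, and their median of 0.16 was -0.03 without NF 45 replicate 2, the library in which their summed level was lowest, at 52800 CPM against 84600 and 99500 CPM in its partners.

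The remaining leading decreases had varied roles. The RNA helicase gene ddx3x.L measured 415, 423 and 450 CPM at NF 45 and 265, 323 and 275 CPM at NF 47, and fell by 0.58 (SE 0.0972, DESeq2 adjusted p 1.22e-05). The spermine oxidase gene smox.L measured 46.9, 51.1 and 51.0 CPM and then 30.4, 30.4 and 30.8 CPM, and fell by 0.71 (SE 0.122, adjusted p 1.69e-05). For tuba5.S, an alpha-tubulin gene, the levels were 387, 330 and 426 CPM and then 241, 256 and 256 CPM, a log2 fold change of -0.61 (SE 0.105, adjusted p 1.69e-05). None of the 3 overlapped between stages. Among chaperones, 4 of 43 tested members of the heat shock list fell and 0 rose, against 0.452% and 0.606% of all genes. They were hspa5.L (-0.49) and hspa5.S (-0.44), the copies of the endoplasmic reticulum chaperone BiP, hspd1.L (-0.43), a mitochondrial chaperone, and hsph1.L (-0.49). That list also held 6 genes higher and 11 lower at an unadjusted p under 0.05 by edgeR, against 5.07% and 4.57% of all genes. Its median was -0.11, or 0 without NF 45 replicate 3 and -0.02 without NF 47 replicate 2. The calls were 3 without NF 45 replicate 2 and 0 with the replicate block.

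**Figure D3:**
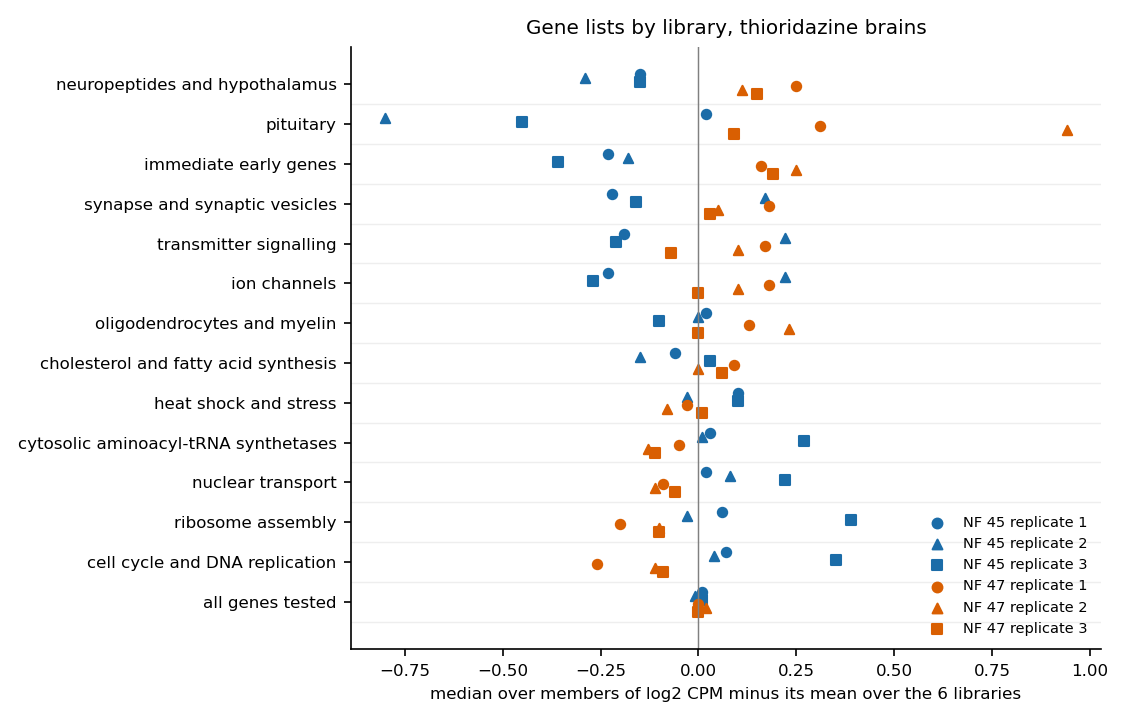
Median over the members of each list of log2 CPM minus its mean over the 6 thioridazine libraries; each point is 1 library. NF 47 libraries lie to the right for neuropeptides and immediate early genes and to the left for ribosome assembly and cell cycle genes, and NF 45 replicate 2 lies with NF 47 for synapse, transmitter and ion channel genes.

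Among the largest fold changes, that of sav1.S rested mostly on 1 library. The log2 fold change of 3.81 (SE 0.964, DESeq2 adjusted p 0.0136) for sav1.S, a Hippo pathway adaptor gene, came from levels of 4.54, 5.29 and 4.14 CPM at NF 45 and 12.4, 6.70 and 177 CPM at NF 47, with replicate 3 far above the others. For tat.L, tyrosine aminotransferase, the levels were 10.8, 16.2 and 13.2 CPM and then 31.3, 35.8 and 25.6 CPM, a rise of 1.2 (SE 0.325, adjusted p 0.0235), with no overlap. For aspn.L, a matrix proteoglycan gene, they were 12.7, 7.02 and 11.6 CPM and then 26.3, 15.7 and 26.4 CPM, a rise of 1.13 (SE 0.316, adjusted p 0.0301, and 0.0973 without NF 45 replicate 2).

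Lists for progenitors and radial glia (median 0.06, 1 rise among 53), regional patterning (0.05, 0 among 111), axon guidance (-0.02, 0 among 67) and thyroid hormone signalling (0.06, 0 among 24) lay near the median of all genes. For the thyroid hormone receptor gene thrb.S and the hormone-responsive klf9.L the levels stayed at or below 0.728 and 2.57 CPM in all 6 libraries. Whether a difference could be detected at levels this low was not tested. Leukocyte genes had a median of -0.16, with 10 of 38 above 0 and 0 called, and apoe.S, an apolipoprotein of microglia and other cells, measured 247, 54.3 and 234 CPM and then 108, 147 and 128 CPM. Lists that changed sign when NF 45 replicate 2 was left out were muscle (-0.58 to 0.29), cartilage, bone and connective tissue (0.11 to -0.19), ribosomal proteins (0.16 to -0.03), oxidative phosphorylation (0.08 to -0.06), axon guidance (-0.02 to 0.10), circadian clock (-0.05 to 0.05) and nodes of Ranvier (-0.03 to 0.24). Skin moved from -0.24 to -0.66, and was 0.19 without NF 45 replicate 1.

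**Figure D4:**
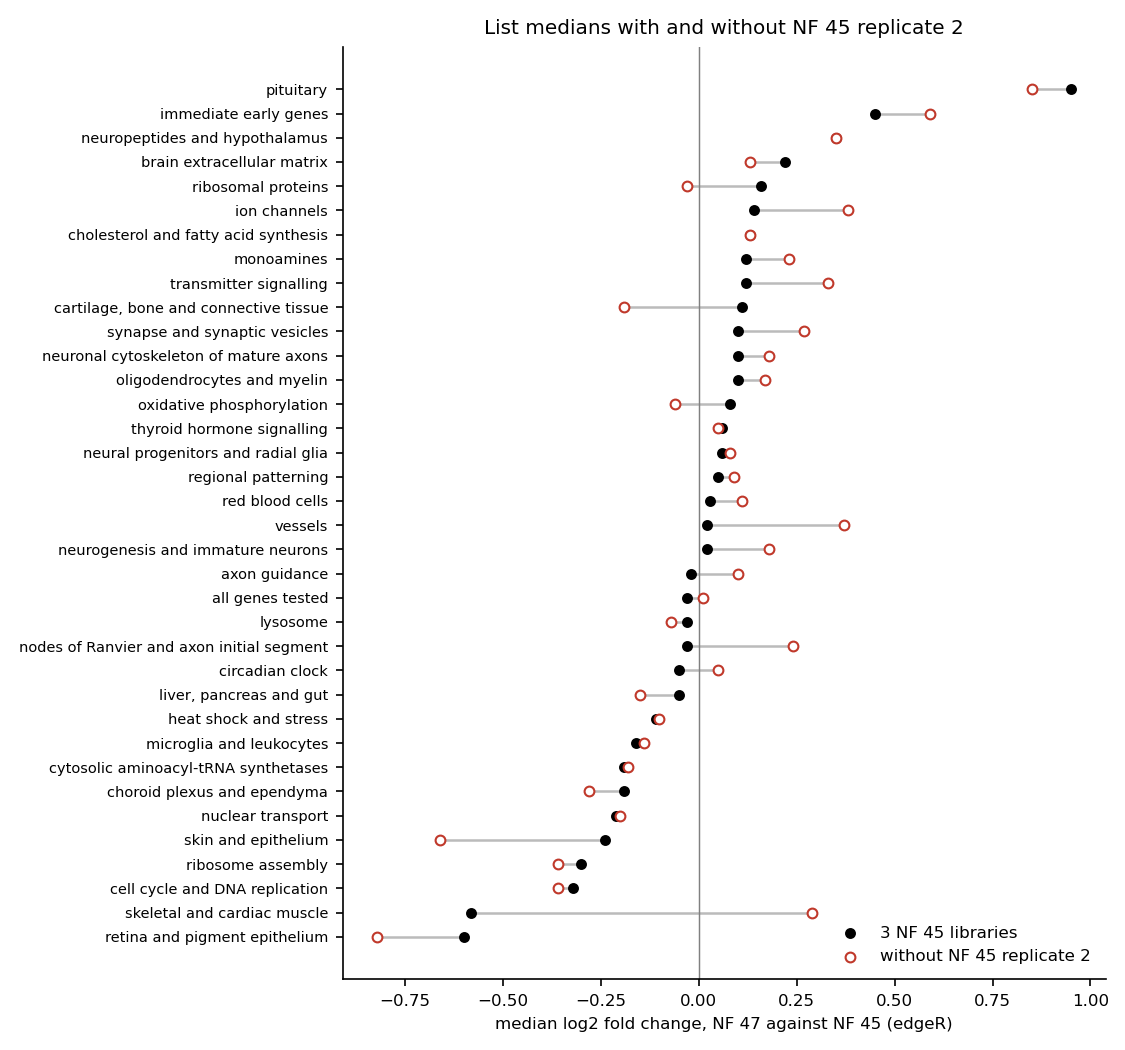
Median log2 fold change (NF 47 against NF 45, edgeR) of each list with 3 NF 45 libraries (black) and without NF 45 replicate 2 (open red). Neuropeptides (0.35 and 0.35), cell cycle (-0.32 and -0.36) and ribosome assembly (-0.30 and -0.36) lie close together, while muscle goes from -0.58 to 0.29.

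Untreated brains passed through the same stages, and the stage difference in them was measured in the same fit. There DESeq2 called 431 genes (1.62%), of which 137 were also among the 281, which is 48.8% of the thioridazine calls and 31.8% of the control calls, all 137 in the same direction. Of the 281, 279 had the same sign in controls. The share of all genes with like signs in both arms is not given here, so this count has no background beside it. Control NF 45 replicate 2 stood apart as its thioridazine namesake did, at 104.4 on the first component of all 12 libraries against 118.3, with the other 10 between -56.16 and 9.6, and with summed levels of 785 CPM for skin and 4120 CPM for muscle against 3460 to 4270 and 1160 to 2380 CPM in its partners. Without both NF 45 libraries numbered 2, DESeq2 called 844 genes in thioridazine and 1753 in controls, and edgeR called 3 and 817. The difference between the 2 stage differences was tested directly. It was called for 0 genes by edgeR (0%) and 0 by DESeq2 (0%), and 91 genes (0.342%) passed at an unadjusted p under 0.05 by edgeR. With both of those libraries left out it was again called for 0 genes by either tool, and 315 passed the unadjusted threshold. If no gene differed and the p-values were calibrated, a threshold of 0.05 would pass a larger share than 0.342%. Control and thioridazine libraries of one stage and number deviated alike from their group means (correlations 0.291 to 0.845). The main fit did not remove this. With the replicate number as a block within stage, 0 genes were called by edgeR and 402 passed unadjusted. The part of these deviations in the low share, and in the like signs and shared calls of the arms, was not tested. No gene was thus shown to mature differently after thioridazine, and with 3 libraries a group these tests do not show that the courses were alike.

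Side by side, the neuropeptide list had a median of 0.35 after thioridazine and 0.58 in controls, where 27 members rose, and 5 of its 62 members had an unadjusted p under 0.05 for the difference. One was gnrh2.L, which in controls measured 10.4, 8.84 and 11.8 CPM at NF 45 and 17.1, 24.3 and 20 CPM at NF 47 (log2 fold change 0.98; p for the difference 0.0498 by edgeR, unadjusted). In the pituitary list, prl.2.S in controls lay between 11.6 and 15.2 CPM at NF 45 and between 12.7 and 18.3 CPM at NF 47. Its log2 fold change was 0.11 there against 1.1 after thioridazine by edgeR, and the unadjusted p for the difference was 0.0145. For jarid2.L the controls measured 421, 321 and 265 CPM and then 651, 586 and 586 CPM, a log2 fold change of 0.85, and the unadjusted p for the difference was 0.0507. The cell cycle list had medians of -0.32 after thioridazine and -0.24 in controls, and ribosome assembly -0.30 and -0.30.

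**Figure D5:**
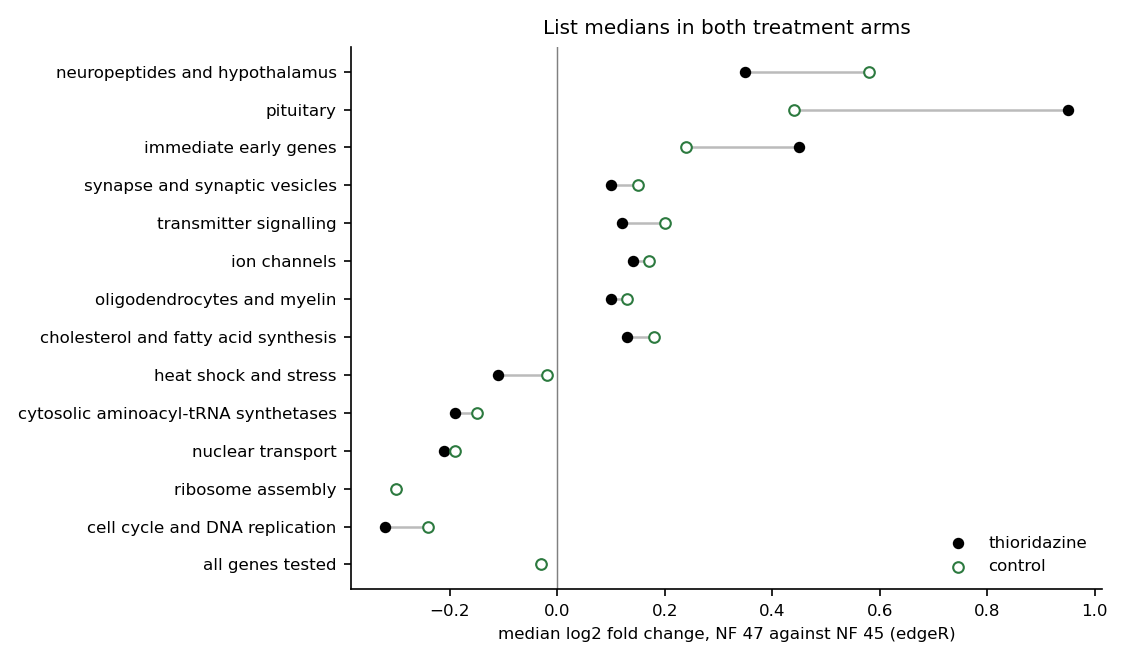
Median log2 fold change (NF 47 against NF 45, edgeR) of each list in thioridazine brains (black) and control brains (open green), 3 libraries per stage in each arm. Ribosome assembly lies at -0.30 in both, neuropeptides at 0.35 and 0.58, and the pituitary list at 0.95 and 0.44.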

How the data were processed

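Total RNA of whole brains was DNase-treated, made into TruSeq libraries and sequenced as single-end reads of 100 bp, per the labels' protocols. The authors deposited raw read counts per NCBI Gene number for each library, with no normalization; the tools named are Trimmomatic, HISAT2, HTSeq and DESeq2, per the submitters' processing notes. Versions, genome build, annotation and strand setting are not given in the sources used here, so reads of a gene and of an antisense or near-identical partner may be mixed. Of 37018 gene numbers, 33597 were matched to symbols in a RefSeq gene table (Xenopus_laevis_v10.1), used for names alone.

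All 12 libraries entered one fit in R 4.3.3 with edgeR 4.0.16: filterByExpr on the 4 groups, TMM scaling and the robust quasi-likelihood F test, with the stage contrast in thioridazine, in controls and their difference. CPM is the count divided by the library's total times its TMM factor, on the usual CPM scale. An SE of an edgeR fold change was derived from the test, as the size of the log2 fold change over the square root of F. DESeq2 1.42.0 and limma-voom (limma 3.58.1) were alternatives; DESeq2 gave no adjusted p for 11342 genes, which stayed uncalled. Calls are at an adjusted p under 0.05. The steps were tested on simulated data, in which DESeq2 made more false calls than edgeR. The simulated counts held no library that stood apart and no deviations shared by replicate number, unlike these data. The calls of DESeq2 here may hold more false ones than the threshold states, and their share was not measured. The median biological coefficient of variation was 20.8%.

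Same-numbered NF 45 and NF 47 thioridazine libraries deviated together from their group means, with correlations of 0.186, 0.236 and 0.429 across genes. The numbers were therefore taken as pairs in the fits with the replicate block, a pairing that comes from the data and not from the labels. The main fits, and the calls behind the words rose and fell, used no pairing.

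The comparison, the lists and the tests were chosen with earlier results of these data known, and 3 lists were added after values had been seen. The rule for named genes took per direction the 10 smallest adjusted p among calls with a log2 fold change of at least 1 in size and no overlap, up to 4 called members per list and a set of fixed genes (among them th, drd2, gnrh2, mbp, gh1, cdk1, thrb, klf9). It was written for edgeR calls. With 0 of these it was applied to the DESeq2 calls, and the 12 smallest adjusted p per direction without a minimum fold were added, both after values had been seen. Outside these rules, and also chosen after values had been seen, are penk.L, vip.L, cck.L, pmch.S, npy.S, snca.L, nr4a1.L, bub1b.L, anln.L and jarid2.S. Where a list had no call, examples are from its members of highest level. The levels of elavl4.L, fabp7.L, syt1.L, elavl3.L and en2.S served as checks of brain tissue. One gene that the rule names is not reported here.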

Additional observations from a re-analysis of the deposited data

How the results depend on the processing

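The count of 0 genes called by edgeR in the thioridazine stage difference stayed at 0 when any of the 6 thioridazine libraries was left out, with the replicate block, with the 6 libraries alone, with DESeq2 size factors, without the filter on low counts and with chromosome copies summed. It was 1 (jarid2.L) by limma-voom, with and without NF 45 replicate 2, 281 by the DESeq2 Wald test, 3 (jarid2.L, rrm2b.S and acy3.L) without both NF 45 libraries numbered 2, and between 0 and 1 when a control library was left out. Without NF 45 replicate 2 it was 219 by DESeq2 and 1 by limma-voom, and 0 with the replicate block and without both thioridazine libraries numbered 2. The cause of these differences was not tested.

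The count at an unadjusted p under 0.05, 2560, ran from 1326 to 3428 when a library was left out, and was 4441 by limma-voom, 4556 by limma-voom without NF 45 replicate 2, 4354 without both NF 45 libraries numbered 2 and 3054 with the replicate block. The 281 DESeq2 calls ran from 34 to 497 when a thioridazine library was left out, and were 844 without both NF 45 libraries numbered 2, 58 with the replicate block and 53 with the 6 libraries alone. The difference between the arms had 0 calls under each alternative run.

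Of 102 genes followed, 96 kept their sign when a thioridazine library was left out, with DESeq2 size factors, with the replicate block, with the 6 libraries alone, without both NF 45 libraries numbered 2, by DESeq2 and by limma-voom. The other 6 turned in 16 values. A gene whose stages did not overlap could hardly turn when a library was left out. When a thioridazine library was left out, jarid2.S ran from -0.29 to 0.67, th.S from -0.31 to 0.10, thrb.S from -0.28 to 0.91, krt12.5.S from -1.19 to 0.20, ckm.L from -1.15 to 0.35 and rplp0.L, a ribosomal protein gene, from -0.15 to 0.21. By limma-voom thrb.S was -0.06, ckm.L 0.08 and rplp0.L -0.14; with the replicate block krt12.5.S was 0.34; without both NF 45 libraries numbered 2 ckm.L was 0.36 and rplp0.L -0.15. Of 324 list medians under alternatives, 39 moved beyond the spread between replicates.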
